A study of Mus musculus with 6 samples.

Results

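Heat shock proteins and chaperones were followed in the RNA of RPE-choroid, the retinal pigment epithelium (RPE) with the vascular choroid behind it, from mice with laser-induced subretinal fibrosis. The 10 genes were given by name (Hspa1a, Hspa1b, Hspb1, Hsph1, Dnajb1, Hsp90aa1, Hspa8, Hspa5, Hspd1 and Hspe1) and were matched to the Ensembl identifiers of the tables, which list 15663 genes and all 10 of these. The groups were 3 control mice, untreated, and 3 subretinal fibrosis mice, all C57BL/6 males (C57BL/6J in the study's methods), with 1 library each. The study's methods give between 8 and 10 weeks as the age at which mice were provided. Age when RNA was taken is not stated there. Fibrosis mice had received 4 laser burns in each eye and a second burn on every lesion 10 days later, and RNA was taken 20 days after the second laser. RNA came from the whole RPE-choroid, so lesions and the tissue around them were read together, and whether the eyes of a mouse were pooled is not given in the sources used here.

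Chaperones bind proteins that are unfolded or not yet folded and help them reach or regain their shape. HSP70 proteins do so in cycles of ATP use, in which J-domain proteins deliver the client and HSP110 proteins exchange the nucleotide, HSP90 proteins finish the folding of kinases and receptors, small heat shock proteins hold denatured proteins, and the HSP60 and HSP10 chaperonin encloses clients in the mitochondrion. Heat, oxidants or heavy metals release heat shock factor 1 (Hsf1), which binds heat shock elements in the promoters of the inducible genes, whereas unfolded protein in the endoplasmic reticulum (ER) induces Hspa5 by a separate pathway. The RPE faces intense light and digests photoreceptor outer segments every day, so its demand for protein folding and turnover is high.

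Most of the members carry the letters of the heat shock element in their promoters. Those of Hspa1a and Hspa1b are shown because the copies are nearly the same, that of Hspb1 because it holds a pair of elements, those of Hspe1 and Hsph1 because they hold 3 or more units in a row, and that of Hspa5 for its ER stress element. The sequences are from RefSeq (GRCm38.p6), and 8 of the 10 genes have a promoter there, all but Hsp90aa1 and Hspa8. The first 3 sequences are the 150 bases before the start of transcription, 5′ to 3′ on the strand of the gene, with GAANNTTC or TTCNNGAA in capitals.
Hspa1a (chr17:34972157-34972306, reverse strand): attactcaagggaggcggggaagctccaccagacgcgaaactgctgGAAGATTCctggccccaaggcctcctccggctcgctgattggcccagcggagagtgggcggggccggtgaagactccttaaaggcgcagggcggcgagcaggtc
Hspa1b (chr17:34959239-34959388, reverse strand): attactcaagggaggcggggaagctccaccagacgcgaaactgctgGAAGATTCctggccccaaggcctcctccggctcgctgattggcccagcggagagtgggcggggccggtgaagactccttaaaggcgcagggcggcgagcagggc
Hspb1 (chr5:135887769-135887918, forward strand): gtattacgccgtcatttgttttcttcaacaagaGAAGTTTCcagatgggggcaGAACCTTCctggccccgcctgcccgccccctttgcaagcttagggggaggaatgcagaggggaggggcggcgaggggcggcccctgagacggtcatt

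Of these bases 149 of 150 are the same in Hspa1a and Hspa1b, whose single element GAAGATTC starts at position -104, counted back from the first transcribed base. Hspb1 holds GAAGTTTC at -117 and GAACCTTC at -97. In the next 3 sequences the match lies within an annotated untranslated exon of one transcript or of the neighbouring gene, so only the match and its closest bases are given. The capitals mark the heat shock element in Hspe1 and Hsph1, and in Hspa5 the ER stress element, CCAAT and CCACG with 9 bases between them. The matches start at -89 in Hspe1 and at -65 in Hspa5. In Hsph1 the run lies after the start of transcription, at position 16 or 37 by the annotated start used.
Hspe1 (chr1:55088054-55088081, forward strand): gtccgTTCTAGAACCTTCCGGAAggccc
Hsph1 (chr5:149636283-149636305, reverse strand): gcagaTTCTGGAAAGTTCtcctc
Hspa5 (chr2:34772020-34772048, forward strand): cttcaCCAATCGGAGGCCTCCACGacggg

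The run shown for Hspe1 also lies in a promoter of Hspd1, since both genes start within the same stretch of chromosome 1 and are read away from each other. Both strands were searched in windows from 250 bases before to 50 bases after the start, and GAANNTTC or TTCNNGAA was found in 6 of the 8 members with a promoter (Hspa1a, Hspa1b, Hspb1, Hsph1, Hspd1 and Hspe1) against 17.0% of all 27025 genes with one. Runs of 3 alternating units of GAA and TTC, each 2 bases from the next, contain the shorter motif and were found in 3 members (Hsph1, Hspd1 and Hspe1) against 0.662% of all genes. The ER stress element was found in Hspa5 and in 0.137% of all genes. None of these motifs was found in the window of Dnajb1. A match is a description of the letters and not of binding.

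The depth ranged between 13667310 and 24356023 counts on listed genes per library. The libraries of control mouse 1 and fibrosis mouse 3 held far more photoreceptor RNA than the others, with a mean log2 CPM (read counts scaled to library size with TMM factors) over 10 photoreceptor genes of 8.91 and 8.97 against 4.77 to 6.16 in the other 4. Defining genes of the RPE were abundant in every library, with a mean log2 CPM over 8 genes from 10.3 to 10.6 in fibrosis and from 10.7 to 10.8 in control mice. Over 8 macrophage genes the mean log2 CPM was 6.74 to 7.09 in fibrosis and 5.90 to 6.17 in control mice. No listed gene is at 0 in any library. In bulk tissue fewer cells of a type and less RNA per cell cannot be told apart, and apart from the photoreceptor level the part of these cell types in the results below was not tested.

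None of the 10 genes was called as changed in fibrosis. A call in edgeR's quasi-likelihood test needed both an adjusted p-value below 0.05 and a log2 fold change that reached 0.5 in size. Genes entered the test with over 50 counts in 2 or more libraries, as all 10 members did. The share called over all 13454 genes tested was 0%, so a count of 0 members does not set them apart. With DESeq2 0 members were called against 1.14% of all genes. At an unadjusted p-value under 0.05, 1 member, Hspa8, passed in edgeR against 7.01% of all genes (2.85% lower and 4.16% higher in fibrosis), and the same gene alone passed in DESeq2 against 7.23%. Of the 10 log2 fold changes 6 were below 0, where 49.7% of all genes were, and 4 above, with a median of -0.07, beside 0.00124 over all genes tested. With single mice left out that median ran from -0.12 (without fibrosis mouse 1) to -0.030 (without fibrosis mouse 3). The 95% intervals from the edgeR fit lay between -1 and 1, that is within a doubling either way, for 9 of the 10 genes and for 79.0% of all genes. They lay between -0.5 and 0.5 for 4 members, Hspa1a, Hsph1, Hspa5 and Hspd1. The intervals are for single genes, without adjustment for their number.

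**Figure D1:**
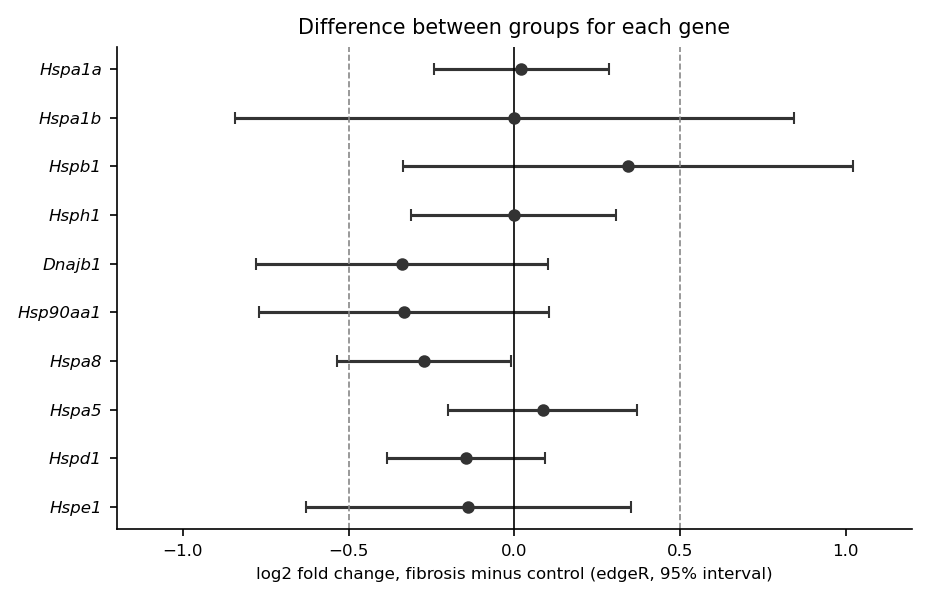
The log2 fold change of each of the 10 genes (x axis, fibrosis minus control, from edgeR) is drawn as a point with its 95% interval, and dashed lines mark -0.5 and 0.5. The interval of Hspa8 alone does not reach 0, and that of Hspb1 alone passes 1.

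The inducible HSP70 genes Hspa1a and Hspa1b, which encode the strongly heat-inducible cytosolic chaperone, differed between groups by less than the spread between mice. Hspa1a (ENSMUSG00000091971, GRCm38 chromosome 17, 34969190 to 34972156, reverse strand) had 43.9, 48.0 and 47.9 CPM in control mice 1, 2 and 3 and 44.2, 50.7 and 47.0 CPM in fibrosis mice 1, 2 and 3. The groups overlapped, and the highest library exceeded the lowest by 1.15 times. It averaged 46.6 ± 2.35 CPM over the control mice against 47.3 ± 3.23 CPM with fibrosis (SD, n = 3), with a log2 fold change of 0.02 (standard error 0.11, 95% interval -0.24 to 0.29). Hspa1b (ENSMUSG00000090877, GRCm38 chromosome 17, 34956436 to 34959238, reverse strand) was far scarcer, with 2.38, 3.74 and 2.79 CPM in control mice 1, 2 and 3 and 3.45, 2.83 and 2.63 CPM in fibrosis mice 1, 2 and 3. These rest on 32 to 69 counts per library, and the interval of the log2 fold change, -0.84 to 0.84, was the widest of the 10.

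Reads of the 2 copies can be hard to place. Of the 2704 windows of 100 bases in the longest Hspa1b transcript of GENCODE M21, 1350 (49.9%) occur letter for letter in that of Hspa1a. The share of Hspa1b in the counts of both genes was 5.14% to 7.24% over the 6 libraries. How the counting assigned reads that match both is not given in the sources used here, so the level of each copy is uncertain and their sum is the firmer value. The annotation also places the gene Gm20481 across Hspa1a on the other strand, and without strand its reads cannot be told apart from those of Hspa1a. Summed, the 2 genes were at 49.6 ± 2.91 CPM over the control mice against 50.3 ± 2.96 CPM with fibrosis (SD, n = 3; exact permutation test, two-sided, p = 0.8, where 3 mice against 3 cannot go under 0.1).

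Hsph1, an HSP110 protein that exchanges the nucleotide of HSP70, and Dnajb1, the J-domain protein that stimulates its ATP use, both work with HSP70. Hsph1 (ENSMUSG00000029657, GRCm38 chromosome 5, 149614287 to 149636376, reverse strand) had 47.5, 48.3 and 50.7 CPM in control mice 1, 2 and 3 and 41.9, 50.2 and 54.2 CPM in fibrosis mice 1, 2 and 3. Control mice lay within the range of the fibrosis mice, at a log2 fold change of -0.00223 (standard error 0.13, 95% interval -0.31 to 0.31). Dnajb1 (ENSMUSG00000005483, GRCm38 chromosome 8, 83608193 to 83612653, forward strand) had 67.5, 98.4 and 108 CPM in control mice 1, 2 and 3 and 67.7, 70.3 and 78.9 CPM in fibrosis mice 1, 2 and 3. All 3 fibrosis mice were below control mice 2 and 3, while control mouse 1 was just below the lowest fibrosis mouse. The log2 fold change was -0.34 (standard error 0.19, 95% interval -0.78 to 0.10; adjusted p = 0.829 in edgeR with Benjamini-Hochberg adjustment). Control mouse 1 is one of the pair of libraries rich in photoreceptor RNA. Without that pair, with 2 mice against 2, Dnajb1 had a log2 fold change of -0.58 (standard error 0.13, adjusted p = 0.0734 in edgeR), and in that fit 17.5% of all genes had an unadjusted p-value under 0.05. With all 6 libraries and the photoreceptor level as a covariate it was -0.34. Immediate early genes, which rise within minutes of stimulation or handling, were also highest in control mice 2 and 3, with a mean log2 CPM over 28 genes of 4.08, 5.01 and 4.72 in control mice 1, 2 and 3 and 3.97, 4.07 and 4.11 in fibrosis mice 1, 2 and 3, and their part in the Dnajb1 level was not tested.

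Hspb1, the small heat shock protein HSP27 (HSP25 in mice), which holds unfolded proteins and binds actin filaments, had the widest spread of the members. Hspb1 (ENSMUSG00000004951, GRCm38 chromosome 5, 135887919 to 135889563, forward strand) had 63.5, 113 and 111 CPM in control mice 1, 2 and 3 and 133, 148 and 83.2 CPM in fibrosis mice 1, 2 and 3. Fibrosis mice 1 and 2 were above every control mouse, but fibrosis mouse 3 was below control mice 2 and 3. It averaged 95.6 ± 27.8 CPM over the control mice against 121 ± 33.9 CPM with fibrosis (SD, n = 3), with a log2 fold change of 0.34 (standard error 0.29, 95% interval -0.34 to 1.02; adjusted p = 0.947 in edgeR with Benjamini-Hochberg adjustment). The lowest libraries, of control mouse 1 and fibrosis mouse 3, were those highest in photoreceptor RNA, and with the photoreceptor level as a covariate the log2 fold change was 0.28 (standard error 0.14). Without those 2 libraries it was 0.33 (standard error 0.13, adjusted p = 0.241 in edgeR). Skeletal muscle also uses Hspb1, and the mean log2 CPM over 6 skeletal muscle genes was 6.81, 7.59 and 6.74 in control mice 1, 2 and 3 and 8.10, 7.77 and 6.25 in fibrosis mice 1, 2 and 3. The part of muscle RNA in the Hspb1 level was not tested.

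**Figure D2:**
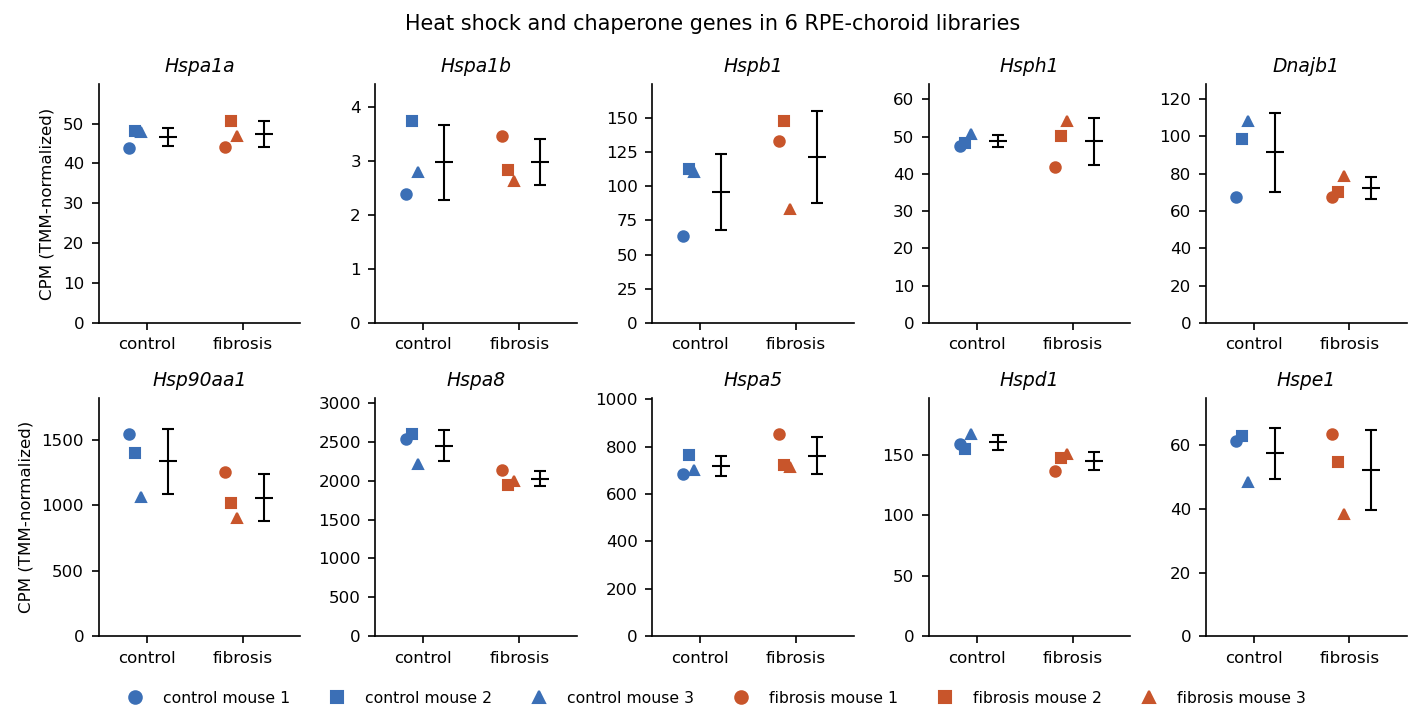
CPM (y axis, from 0, TMM-normalized) of each of the 10 genes is drawn for 3 control and 3 fibrosis mice, 1 symbol per mouse, with the group mean and SD as bars beside the points. Hspa1a, Hsph1 and Hspa5 lie close together in both groups, and for Hspa8 and Hspd1 every fibrosis mouse lies below every control mouse.

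Hsp90aa1 encodes the inducible form of cytosolic HSP90, which holds kinases and nuclear receptors ready for their signals. Hsp90aa1 (ENSMUSG00000021270, GRCm38 chromosome 12, 110690605 to 110702728, reverse strand) had 1539.8, 1399 and 1062 CPM in control mice 1, 2 and 3 and 1251, 1018 and 905 CPM in fibrosis mice 1, 2 and 3. Fibrosis mouse 1 was above control mouse 3, so the groups overlapped. The log2 fold change was -0.33 (standard error 0.18, 95% interval -0.77 to 0.10; adjusted p = 0.837 in edgeR with Benjamini-Hochberg adjustment). Without the 2 libraries rich in photoreceptor RNA it was -0.12 (standard error 0.17). Leaving out single mice gave -0.22 without control mouse 1 and -0.47 without control mouse 3. With all 6 libraries and the photoreceptor level as a covariate the log2 fold change was -0.34 (standard error 0.19). Its constitutive partner Hsp90ab1 had a log2 fold change of -0.08 (95% interval -0.47 to 0.31).

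Hspa8 encodes HSC70, the HSP70 protein that every cell makes without stress and that uncoats clathrin vesicles, and it was the most abundant member. Hspa8 (ENSMUSG00000015656, GRCm38 chromosome 9, 40800984 to 40810087, forward strand) had 2533, 2593 and 2218 CPM in control mice 1, 2 and 3 and 2133, 1948 and 1997 CPM in fibrosis mice 1, 2 and 3. Each fibrosis mouse was below each control mouse, with control mouse 3 and fibrosis mouse 1 closest. It averaged 2448 ± 201 CPM over the control mice against 2026 ± 96.0 CPM with fibrosis (SD, n = 3), with a log2 fold change of -0.27 (standard error 0.11, 95% interval -0.54 to -0.01; adjusted p = 0.676 in edgeR and 0.329 in DESeq2, both with Benjamini-Hochberg adjustment). Its unadjusted p-value in the 15 other fits was under 0.05 in 4. In the deposited FPKM values the groups met, at 939 FPKM in control mouse 3 and 939.6 FPKM in fibrosis mouse 1. The CPM of the groups did not overlap for 2 members, Hspa8 and Hspd1, and for 13.1% of all genes tested (6.43% lower and 6.71% higher in fibrosis). The annotation places small nucleolar RNA genes within Hspa8 on the same strand.

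Hspa5 encodes BiP, the HSP70 protein of the ER and a standard reporter of the unfolded protein response. Hspa5 (ENSMUSG00000026864, GRCm38 chromosome 2, 34771970 to 34777547, forward strand) had 684, 766 and 703 CPM in control mice 1, 2 and 3 and 851, 722 and 712 CPM in fibrosis mice 1, 2 and 3. Only fibrosis mouse 1 stood above the range of the control mice. The difference on the log2 scale was 0.09 (standard error 0.12, 95% interval -0.20 to 0.37).

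Hspd1 and Hspe1 encode HSP60 and HSP10, the barrel and lid of the mitochondrial chaperonin, from neighbouring genes read in opposite directions. Hspd1 (ENSMUSG00000025980, GRCm38 chromosome 1, 55077835 to 55088243, reverse strand) had 159, 155 and 167 CPM in control mice 1, 2 and 3 and 137, 148 and 150.1 CPM in fibrosis mice 1, 2 and 3. All fibrosis mice were lower in CPM, the closest being fibrosis mouse 3 and control mouse 2, and the log2 fold change was -0.15 (standard error 0.10, 95% interval -0.38 to 0.09). In FPKM the groups overlapped, with 65.3 in control mouse 2 below 66.4 and 66.6 FPKM in fibrosis mice 2 and 3, and limma on log2(FPKM + 0.1) gave a log2 fold change of -0.073. Hspe1 (ENSMUSG00000073676, GRCm38 chromosome 1, 55088132 to 55091307, forward strand) had 61.1, 62.8 and 48.2 CPM in control mice 1, 2 and 3 and 63.2, 54.7 and 38.4 CPM in fibrosis mice 1, 2 and 3. Its groups overlapped and its log2 fold change was -0.14 (standard error 0.21, 95% interval -0.63 to 0.35). The annotated ends of Hspd1 and Hspe1 overlap on opposite strands, and whether the counts used the strand is not given in the sources used here, so reads of the shared bases cannot be told apart. The ratio of Hspe1 to Hspd1 in FPKM was 1.16, 1.22 and 0.872 in control mice 1, 2 and 3 and 1.39, 1.09 and 0.752 in fibrosis mice 1, 2 and 3. It was lowest in mouse 3 of either group.

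Between genes, levels were compared per length in the deposited FPKM values. Hspa8 was highest, with 863 to 1085 FPKM over the 6 libraries, followed by Hsp90aa1 (489.7 to 837) and Hspa5 (253 to 328 FPKM). Then came Hspb1 (69.2 to 168), Hspe1 (50.1 to 82.8) and Hspd1 (59.5 to 70.4 FPKM), whose ranges overlapped from one to the next. Dnajb1 (22.2 to 35.6), Hspa1a (14.6 to 17.5), Hsph1 (11.8 to 14.8) and Hspa1b (0.820 to 1.31 FPKM) were lowest, and of these only Hspa1a and Hsph1 overlapped in range, although Hspa1a was the higher in each of the 6 libraries. The constitutive Hspa8 exceeded the inducible Hspa1a in FPKM by 49.2 to 72.6 times. The order of the group means was the same in control and in fibrosis mice. The 10 genes took 0.411% to 0.517% of all counts in a library.

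**Figure D3:**
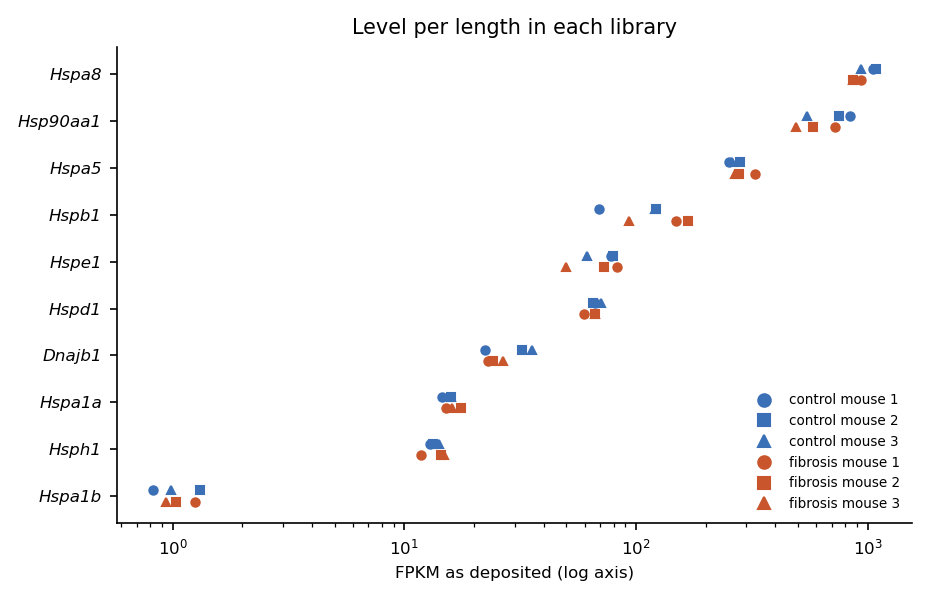
Deposited FPKM values (x axis, log scale) of the 10 genes are drawn for each of the 6 libraries, with control mice above and fibrosis mice below each line. The genes run from Hspa8, at 863 to 1085 FPKM, to Hspa1b, at 0.820 to 1.31 FPKM, and the group means follow the same order in both groups.

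No other chaperone was called either. Over 6 chaperone lists (HSP70 and HSP110, J-domain proteins, HSP90, small heat shock proteins, chaperonins with prefoldin, and cochaperones), 107 genes were tested with the members included. Among them 0 were called by edgeR or DESeq2, which called 0% and 1.14% of all genes, so this count does not set chaperones apart. At an unadjusted p-value under 0.05 in edgeR were 3 higher and 5 lower genes, together 7.48% against the 7.01% of all genes. Without the members the median log2 fold change of the other 97 was -0.02.

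In the HSP70 and HSP110 family 9 of 14 tested genes were higher and 5 lower, with a median log2 fold change of 0.01. Hspa2, an HSP70 protein best known from the testis, had 12.6, 14.6 and 10.99 CPM in control mice 1, 2 and 3 and 16.6, 18.1 and 16.3 CPM in fibrosis mice 1, 2 and 3, without overlap and with a log2 fold change of 0.42 (standard error 0.16, adjusted p = 0.660 in edgeR). Hspa9, mortalin of the mitochondrion, had a log2 fold change of -0.13 (standard error 0.12). Among 40 tested J-domain genes 16 were higher and 24 lower (median -0.01). Dnaja4 was at 40.9 ± 7.45 CPM over the control mice against 56.6 ± 1.45 CPM with fibrosis (SD, n = 3), which is a log2 fold change of 0.47 (standard error 0.15, adjusted p = 0.522 in edgeR), and Dnaja1, a partner of HSC70, at 198 ± 16.1 CPM over the control mice against 163 ± 15.5 CPM with fibrosis (SD, n = 3), or a log2 fold change of -0.28 (standard error 0.12). The 4 HSP90 genes had a median of -0.06, and Hsp90b1, the HSP90 of the ER, was at -0.05 (standard error 0.11).

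Of 8 tested small heat shock genes 6 were higher and 2 lower in fibrosis, with a median log2 fold change of 0.21. That median was 0.070 without control mouse 1, 0.36 without control mouse 2, 0.13, 0.071 and 0.38 without fibrosis mice 1, 2 and 3, and 0.11 with the photoreceptor covariate. The 6 skeletal muscle genes were all higher in fibrosis, with a median log2 fold change of 0.44. Of these 0 had an unadjusted p-value under 0.05 in edgeR, and the groups overlapped in all 6. The part of the skeletal muscle genes in the small heat shock genes was not tested. Hspb6, a small heat shock protein of muscle, was at 73.1 ± 10.8 CPM over the control mice against 98.7 ± 14.7 CPM with fibrosis (SD, n = 3) (log2 fold change 0.43, standard error 0.16, adjusted p = 0.629 in edgeR). Cryaa, a lens crystallin of the same family, had 0.817, 18.5 and 5.99 CPM in control mice 1, 2 and 3 and 1.29, 1.28 and 2.07 CPM in fibrosis mice 1, 2 and 3, with control mouse 2 far above the others and control mouse 3 next. Over 5 lens genes the mean log2 CPM was 0.367, 3.44 and 2.21 in control mice 1, 2 and 3 and 0.944, -0.456 and 0.639 in fibrosis mice 1, 2 and 3, in the same order at the top. The 16 tested chaperonin and prefoldin genes had a median of -0.06, with Cct7, a subunit of the cytosolic chaperonin, at -0.16 (standard error 0.10) and Vbp1, a prefoldin subunit, at -0.33 (standard error 0.20).

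The median of the cochaperones, which assist HSP70 and HSP90, moved with the libraries and the unit used. Of 25 tested genes 17 were lower and 8 higher, with a median log2 fold change of -0.16 beside 0.00124 over all genes. That median was -0.064 without control mouse 2, -0.086 without fibrosis mouse 2 and -0.093 with limma on log2(FPKM + 0.1). The groups did not overlap in 7 of the 25 (28.0%), all lower in fibrosis, as in 6.43% of all genes. St13, the HSC70-interacting protein HIP that holds HSP70 on its client, had 532, 568 and 691 CPM in control mice 1, 2 and 3 and 429, 424 and 483 CPM in fibrosis mice 1, 2 and 3, a log2 fold change of -0.42 (standard error 0.14, adjusted p = 0.539 in edgeR). Chordc1, a partner of HSP90, was at 68.7 ± 5.31 CPM over the control mice against 54.9 ± 3.96 CPM with fibrosis (SD, n = 3), with a log2 fold change of -0.32 (standard error 0.12, adjusted p = 0.604 in edgeR). At an unadjusted p-value under 0.05 in edgeR 3 cochaperones were lower (St13, Chordc1 and Cacybp) and 0 higher. Calls by edgeR and DESeq2 were 0 of this list, against 0% and 1.14% of all genes.

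Neither edgeR nor DESeq2 called a heat shock factor or another heat-induced gene, but over all genes they called only 0% and 1.14%. Hsf1, the main activator of the heat shock response, was at 49.2 ± 2.26 CPM over the control mice against 47.5 ± 5.14 CPM with fibrosis (SD, n = 3) (log2 fold change -0.05, 95% interval -0.34 to 0.24). Hsf2, which binds the same element, had 18.4, 16.8 and 16.6 CPM in control mice 1, 2 and 3 and 12.9, 14.1 and 13.7 CPM in fibrosis mice 1, 2 and 3, without overlap (log2 fold change -0.35, standard error 0.14, adjusted p = 0.666 in edgeR). Hsf4, the factor of the lens, had a log2 fold change of 0.01 (95% interval -0.45 to 0.48), and Hsbp1, which binds the factors, of -0.06 (standard error 0.10). Of 22 tested genes commonly induced by heat, members aside and most of them also in the lists above, 8 were higher and 14 lower (median -0.09). Among them Cacybp, a calcyclin-binding protein of ubiquitin ligase complexes, was at 122 ± 8.45 CPM over the control mice against 101 ± 4.31 CPM with fibrosis (SD, n = 3) (log2 fold change -0.28, standard error 0.10, adjusted p = 0.622 in edgeR).

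The 34 genes of ER chaperones and the unfolded protein response were split between 18 higher and 16 lower, with a median log2 fold change of 0.02 and with 0 at an unadjusted p-value under 0.05 in edgeR. Pdia6 and P4hb, ER enzymes that form disulphide bonds, had log2 fold changes of 0.21 (standard error 0.10) and 0.17 (standard error 0.10). Among 17 mitochondrial chaperone and protease genes 6 were higher and 11 lower, with a median of -0.06 and also 0 at an unadjusted p-value under 0.05 in edgeR. Grpel1, the nucleotide exchange factor of mortalin, and Yme1l1, a protease of the inner membrane, had log2 fold changes of -0.18 (standard error 0.11) and -0.20 (standard error 0.14). DESeq2 called 0 genes of either list, against 1.14% of all genes.

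Immediate early genes had larger fold changes than the members. Of 26 tested, 22 were lower and 4 higher in fibrosis, with a median log2 fold change of -0.70. Leaving out single mice, it ran from -0.87 (without control mouse 1) to -0.45 (without control mouse 2). Nr4a1 had 78.7, 363 and 289 CPM in control mice 1, 2 and 3 and 27.8, 23.4 and 48.7 CPM in fibrosis mice 1, 2 and 3 (log2 fold change -2.87, standard error 0.58, adjusted p = 0.287 in edgeR and 0.00413 in DESeq2). Jund had a log2 fold change of 1.63 (standard error 0.24, adjusted p = 0.198 in edgeR and 2.8e-07 in DESeq2). In quantitative PCR the study did not verify Jund, and its reduction of Nr4a1 was a trend short of significance. Over the 10 heat shock members the mean log2 CPM was 6.89 to 7.12 in control and 6.82 to 6.996 in fibrosis mice. DESeq2 called 6 of the 26 genes and 0 of the 10 members, against 1.14% of all genes. At that share a count of 0 among 10 does not set the members apart. Of 16 clock and cold-inducible genes 6 were higher and 10 lower (median -0.17), with Ciart at -0.48 (standard error 0.11) and Per3 at -0.41 (standard error 0.10), and with 2 higher and 4 lower at an unadjusted p-value under 0.05 in edgeR. Both edgeR and DESeq2 called 0 of that list, against 0% and 1.14% of all genes. The adjusted p of Per3 was 0.384 in edgeR and 0.0348 in DESeq2, where its log2 fold change did not reach 0.5 in size. That of Ciart was 0.374 in edgeR and 0.0760 in DESeq2. When single mice were left out, the median of the list ran from -0.25 (without fibrosis mouse 3) to -0.051 (without fibrosis mouse 1). With limma on log2(FPKM + 0.1) it was -0.050.

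**Figure D4:**
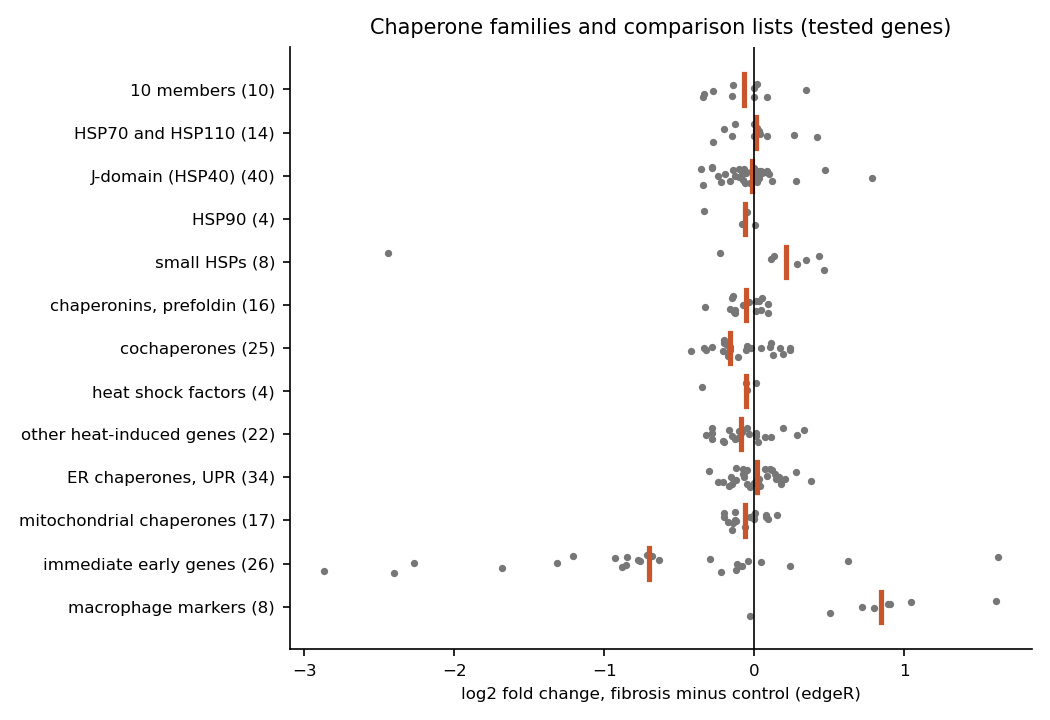
Each grey point is the log2 fold change of 1 tested gene (x axis, fibrosis minus control, from edgeR), each row is a list with its number of tested genes, and the orange bar is the median of the list. The medians of the chaperone and stress lists lie between -0.16 and 0.21, while those of the immediate early genes and of the macrophage markers are -0.70 and 0.84.

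The mean profile of the 6 cytosolic inducible members (Hspa1a, Hspa1b, Hspb1, Hsph1, Dnajb1 and Hsp90aa1) was taken over the 6 libraries on the log2 CPM scale. It was lowest in control mouse 1 and fibrosis mouse 3 and highest in control mouse 2, with a range of 0.34. The 6 genes did not share this course. Hspa1a, Hspa1b, Hspb1 and Dnajb1 were lowest in control mouse 1, but Hsp90aa1 was highest there, at 1539.8 CPM. Hsph1 was highest in fibrosis mouse 3, at 54.2 CPM. The tested genes nearest to the mean profile were Rdm1, Pafah2, Thumpd3, Psmd13 and Ccs. Their root mean square difference from it over the 6 libraries was 0.0174 to 0.0346 on the log2 scale. This is a description over 6 points that share their libraries and scaling. The within-group SD on the log2 scale had a median of 0.199 over the 10 members and of 0.231 over all genes tested, from 0.0637 for Hspd1 to 0.456 for Hspb1.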

How the data were processed

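RNA from the RPE-choroid of 3 control and 3 subretinal fibrosis mice was sequenced as 6 libraries. The authors filtered the reads with FASTP, took read counts per gene from StringTie and deposited them without normalization, with between 13667310 and 24356023 counts per library. The authors also deposited FPKM values, scaled by transcript length and mapped reads. The aligner, genome build, annotation and strand setting are not given in the sources used here. Symbols and positions were taken from GENCODE M21 (GRCm38), in which 15659 of the 15663 identifiers were found. No listed count is below 1, so genes absent from any library are not in the tables.

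Genes with over 50 counts in 2 or more libraries were tested with edgeR 4.0.16 in R 4.3.3 (TMM, glmQLFit with legacy = TRUE, glmQLFTest, group as the only term) with Benjamini-Hochberg adjustment over 13454 genes. Calls needed an adjusted p-value below 0.05 with a log2 fold change reaching 0.5 in size. The standard error was derived as the size of the log2 fold change over the square root of the F statistic of that test. The 95% intervals use it with the degrees of freedom of that fit. DESeq2 1.42.0, limma 3.58.1 on log2(FPKM + 0.1) and log2(FPKM + 1), and the other settings given below were alternatives. The edgeR and DESeq2 fits were tested on simulated data. A mouse number stands for different animals in either group, so the block on it was an alternative only. The members and lists were chosen with earlier results of these data known. The genes named are the members, the 2 other genes with the smallest p-value in each chaperone, stress, clock or immediate early list, Hsf1, Hsf2 and Hsf4, and the 5 genes nearest in profile. Marker lists served as values beside the results. Over 8 endothelial genes the mean log2 CPM was 7.02 to 7.26 in control and 7.00 to 7.30 in fibrosis mice.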

Additional observations from a re-analysis of the deposited data

How the results depend on the processing

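Under all 15 alternatives that refit every gene 0 of the 10 members were called, and the log2 fold changes of Hspb1, Dnajb1, Hsp90aa1, Hspa8 and Hspd1 kept their sign. Of 151 member values, 20 had the opposite sign, all of Hspa1a, Hspa1b, Hsph1, Hspa5 or Hspe1. Hspa1b was at -0.0080 with DESeq2, -0.0040 with legacy = FALSE, -0.0063 with RLE, -0.0039 with no filter, -0.026 with the photoreceptor covariate and -0.048 without the 2 libraries rich in photoreceptor RNA. Hsph1 was at 0.020 and 0.019 with limma on FPKM (pseudocounts 0.1 and 1) and 0.0017 with the covariate. Without the 2 libraries Hspa1a was at -0.015 and Hspe1 at 0.088. With each mouse left out, values ran from -0.031 to 0.064 for Hspa1a, -0.13 to 0.20 for Hspa1b, -0.085 to 0.093 for Hsph1, -0.0045 to 0.13 for Hspa5 and -0.30 to 0.040 for Hspe1. Dnajb1 ran from -0.52 (without control mouse 1) to -0.20 (without control mouse 3), Hsp90aa1 from -0.47 (without control mouse 3) to -0.22 (without control mouse 1), and Hspb1 from 0.12 (without control mouse 1) to 0.55 (without fibrosis mouse 3). Over all genes 0 were called in the main setting, 153 with DESeq2, 154 without the 2 libraries, 2 with limma on FPKM at either pseudocount, 1 each with legacy = FALSE, no filter or the covariate, and 0 to 5 when single mice were left out. The cause of these differences was not tested. A replicate block on the mouse number gave 0 calls over all genes and 0 among the members. At an unadjusted p-value under 0.05 in edgeR, 1206 genes passed with the block and 943 in the main setting. Among the members Hspa8 passed in both, and Hsp90aa1 with the block only (log2 fold change -0.33, standard error 0.094). Between mice of one number, deviations from the group mean correlated at -0.48, 0.49 and -0.30 across genes. With 3 libraries per group these values cannot decide whether the numbers pair the samples. Of 195 list medians 163 moved by less than the spread between replicates. Of the other 32, 11 were of the cochaperones, whose median ran from -0.17 to -0.064. The median of the small heat shock genes ran from 0.070 to 0.38. Those of the 8 remaining chaperone and stress lists stayed between -0.16 and 0.068. The median standard error of 0.19 limits what could be seen.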

Other observations

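The ER stress element was found in the promoters of 8 of 30 genes of the ER and unfolded protein response list (26.7%) against 0.137% of all genes with a promoter. GAANNTTC or TTCNNGAA was found in 8 of 20 heat-induced genes other than the members (40.0%) and in 3 of 23 immediate early genes (13.0%), against 17.0% of all genes. The FPKM ratio of the constitutive Hsp90ab1 to the inducible Hsp90aa1 was 0.352, 0.405 and 0.474 in control mice 1, 2 and 3 and 0.454, 0.485 and 0.460 in fibrosis mice 1, 2 and 3, lowest in control mouse 1, and was chosen for print after its values were seen.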
